A study of Mus musculus with 24 samples.

Results

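Hepatocyte PPARα loss was examined here in livers of mice given CL316243, by comparing 6 LKO mice with 6 LWT mice, 12 of the 24 mice in the series. The 12 were taken by their group labels, LKO_Beta3 and LWT_Beta3, and no measured value entered that choice. All were male C57Bl/6J mice with free access to a standard rodent diet. LWT denotes mice whose hepatocytes express PPARα and LKO mice whose hepatocytes lack it, as the series title gives it. The Cre driver, the part of Ppara removed, the colony of the controls and the age of the mice are not given in the sources used here. CL316243 activates the beta3-adrenergic receptor; mice received 3 mg/kg by gavage in 0.5% carboxymethyl cellulose 10 h after lights on, and their livers were collected 16 h after lights on, in the dark phase. The 6 LWT and 6 LKO mice that received vehicle alone (LWT_Vehicle and LKO_Vehicle) serve as a second genotype comparison without agonist, which shares no array with the first.

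Adipocytes carry the beta3-adrenergic receptor, and its activation makes them hydrolyse stored triglyceride and release fatty acids into the blood, from which the liver takes them up. PPARα is a nuclear receptor that is activated by fatty acids and their derivatives, binds DNA together with a retinoid X receptor (RXR), and drives genes that move fatty acids into mitochondria and peroxisomes, oxidise them, and turn the product into ketone bodies. Its best known liver targets include Cyp4a genes, Cpt1a and the secreted factors Fgf21 and Angptl4. The comparison asks which of the liver's transcripts differ by hepatocyte PPARα while adipose lipolysis is stimulated.

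Each mouse gave 1 liver RNA and 1 single-colour array. A level is given as log2 of the processed spot signal minus that array's 75th percentile, so that 0 marks the 75th percentile, and a difference is LKO minus LWT on that log2 scale. A gene was called when its adjusted p was under 0.05 (limma, Benjamini-Hochberg over 21331 genes). The 75th percentile itself lay between 422.1 and 503.9 intensity units in LWT_Beta3 and between 413.4 and 502.2 in LKO_Beta3, no spot was saturated, and each array had 26985 to 34202 of its 56605 probes well above background. LKO_Beta3 replicate 3 stood apart from its group: it lay at 85.9 on the first principal component, against 11.8 to 44.5 for the other 5 mice, and at 62.2 on the second, against 20.1 to 36.2. Its summed neutrophil marker signal (6 measured genes, linear scale) was 48.8, against 3.23 to 19.7 in the other LKO_Beta3 mice and 1.85 to 13.5 in LWT_Beta3. Of the 8 listed neutrophil genes, 1 was called (Camp), and Ngp and Ltf were too dim to be tested. The part of neutrophil RNA in the results was not tested. Values without this mouse are given for some genes and lists only, and other values moved too, in both directions. Without it, Ppara differed by -1.66 (-1.91 with all mice), G0s2 by -2.88 (-3.46) and Mfsd2a by -5.15 (-4.69).

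In 0 of the 11 lists of cell type markers did the summed signal pass the test between the CL316243 groups (exact permutation p 0.141 to 0.989, two-sided, 924 splits, at least 0.479 after adjustment over the lists). Hepatocyte markers, led by Alb, summed to 4420 to 5370 in LWT_Beta3 and 4210 to 5590 in LKO_Beta3, with 0 of 8 genes called. Of single markers, 5 were called, beside 15.9% of all genes tested. Higher were the pancreatic elastase Cela2a (2.46, 1 of 4 tested), the erythroid Alas2 (0.35, 1 of 4) and the neutrophil Camp (0.40, 1 of 6). Lower were the adipocyte complement factor Cfd (-2.34, 1 of 5) and the T cell Cd3g (-1.25, 1 of 6). In the other lists 0 markers were called. In whole-liver RNA, fewer cells of a type and less RNA per cell cannot be told apart.

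Ppara, which encodes the receptor itself, was lower in LKO_Beta3. Its level ran from 5.70 through a median of 6.35 to 6.42 in the 6 LWT_Beta3 mice and from 3.06 through 4.51 to 4.85 in the 6 LKO_Beta3 mice. Every LKO mouse lay below every LWT mouse, with LKO replicate 3 the lowest. The difference was -1.91 (SE 0.20, adjusted p 3.60e-07), a 3.76-fold lower level. A second Ppara probe, further along the transcript, gave -2.09, and each probe reached the smallest exact permutation p this design allows (0.00216, two-sided). Under vehicle Ppara differed by -0.68 and was not called (limma, adjusted p 0.158). The main probe lies at chr15:85632110-85632169 of build mm9, as the deposited files give it. Since the removed part of Ppara is not given, these probes may lie outside it and do not measure functional receptor.

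Under CL316243, 3393 of 21331 genes (15.9%) were called between the genotypes, 1651 higher (7.74%) and 1742 lower (8.17%) in LKO. The lower genes reached larger sizes: 500 were at least 2-fold, 173 at least 4-fold and 62 at least 8-fold lower, against 285, 49 and 7 higher. The median difference was -0.61 among the called lower genes and 0.52 among the called higher genes. The 6 mice of LKO lay wholly below the 6 of LWT for 861 genes (4.04% of those tested) and wholly above for 540 (2.53%). Of the called genes, 1631 of 1742 lower and 1504 of 1651 higher kept their direction on each of the 3 slides, each of which held 2 mice of every group. The fit on the 12 CL316243 arrays alone called 2203 genes.

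**Figure D1:**
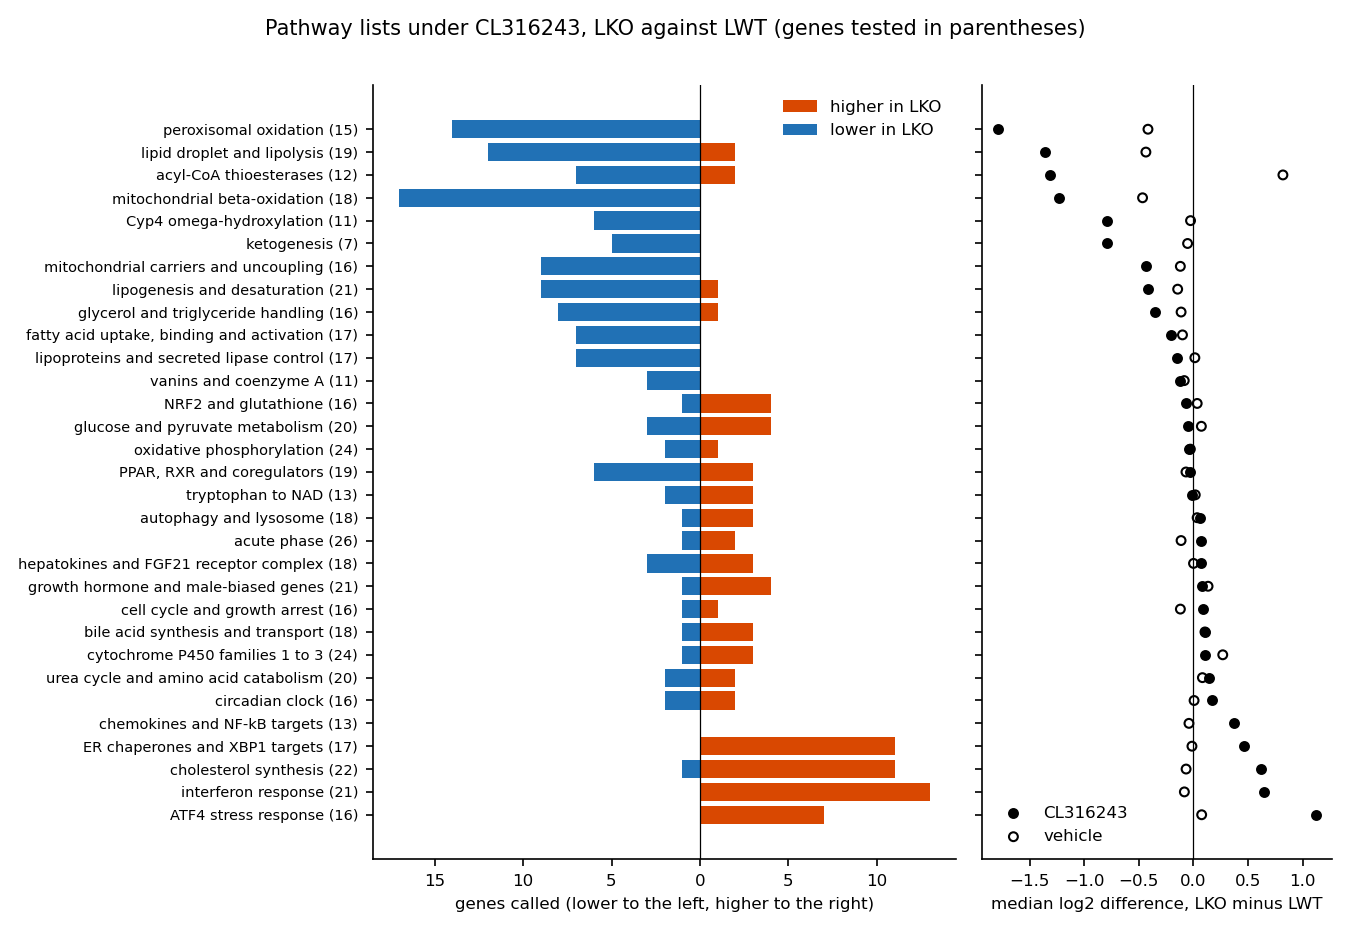
Genotype differences under CL316243 for the 31 pathway lists. Left, bars give the number of genes called lower (leftward) or higher (rightward) in LKO, with the genes tested in parentheses. Right, the median log2 difference over each list under CL316243 (filled) and vehicle (open). Lists of fatty acid oxidation, thioesterases and lipid droplets lie at the top with medians of -1.79 to -1.24, and the ATF4, interferon and cholesterol synthesis lists at the bottom with medians of 0.62 to 1.12.

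The enzymes that carry fatty acids into mitochondria and oxidise them there were lower in LKO nearly throughout. Of 18 genes on the mitochondrial beta-oxidation list, 17 were called lower and 0 higher, with a median difference of -1.24 (all genes tested, 0.01), and for 16 the groups did not overlap. Slc25a20, the carnitine-acylcarnitine carrier of the inner mitochondrial membrane, ran from 2.89 through 3.07 to 3.22 in LWT and from 0.05 through 0.43 to 0.90 in LKO. All LKO mice lay far below all LWT mice, and the difference was -2.61 (SE 0.13, adjusted p 1.77e-12), or 6.11-fold. Etfdh passes electrons from fatty acid oxidation into the respiratory chain. It ran from 6.10 through 6.30 to 6.40 in LWT and 3.94 through 4.05 to 4.13 in LKO, a difference of -2.24 (SE 0.07, adjusted p 2.49e-16) that spans several times the spread within either group. Cpt2, which rebuilds acyl-CoA inside mitochondria, differed by -2.0 and Eci2, an enoyl-CoA isomerase of peroxisomes and mitochondria, by -1.98. Cpt1a, the gatekeeper of mitochondrial fatty acid entry, showed a smaller difference. It ran from 6.05 through 6.28 to 6.41 in LWT and 5.10 through 5.60 to 5.78 in LKO, without overlap, and differed by -0.77 (SE 0.15, adjusted p 0.000833), or 1.71-fold. Echs1, the short-chain enoyl-CoA hydratase, was the member not called (-0.23, adjusted p 0.146).

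Peroxisomal oxidation shortens very long fatty acids before mitochondria take over. Of its 15 listed genes, 14 were called lower and 0 higher, with a median of -1.79 and no overlap for 13. Ehhadh, the bifunctional enzyme of this pathway (probe at chr16:21761914-21761973, mm9), had the largest difference of the list. It ran from 7.20 through 7.71 to 7.84 in LWT_Beta3 and from 2.83 through 3.06 to 3.42 in LKO_Beta3, a difference of -4.48 (SE 0.14, adjusted p 2.49e-16), or 22.3-fold. In the vehicle groups Ehhadh lay at 3.18 to 3.80 in LWT and 3.58 to 4.18 in LKO, so the LKO mice given CL316243 were the lowest of the 4 groups by median. The thiolase Acaa1b differed by -2.17, the carnitine octanoyltransferase Crot by -2.12 and the peroxisome division protein Pex11a by -2.04, each without overlap between the groups. The lipid carrier Scp2 was not called (-0.15, adjusted p 0.128).

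Cytochromes of the Cyp4a family add a hydroxyl group at the far end of a fatty acid. Of 11 genes on the omega-hydroxylation list, 6 were called lower and 0 higher, with a median of -0.79. Cyp4a14 ran from 2.02 through 2.53 to 2.94 in LWT and from -3.83 through -3.51 to -2.49 in LKO, where 5 of 6 arrays were well above background. The groups were far apart, with a difference of -5.97 (SE 0.45, adjusted p 1.49e-09), or of -4.64 with another background correction (normexp). Cyp4a10 differed by -5.88 and Cyp4a31 by -5.70, and Aldh3a2, which oxidises fatty aldehydes, by -2.02. The male-specific Cyp4a12a (-0.41) and Cyp4a12b (-0.37) were not called. These paralogs are close in sequence, so 1 probe may catch RNA of another, and which of Cyp4a10, Cyp4a14 and Cyp4a31 a value belongs to is uncertain.

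Acyl-CoA thioesterases release fatty acids from coenzyme A. Of 12 genes, 7 were called lower and 2 higher, with a median of -1.32, and the groups did not overlap for any of these 9. Acot2, the mitochondrial member, ran from 5.09 through 5.49 to 5.87 in LWT and from 0.84 through 1.17 to 1.27 in LKO, a difference of -4.39 (SE 0.24, adjusted p 4.17e-12), or 21-fold. Acot3 (-3.87), Acot5 (-3.83) and Acot1 (-2.95) followed; their probes can also share signal across this gene cluster. The 2 members called higher were Acot11 (1.27, SE 0.33, adjusted p 0.0103), an enzyme known for its induction in brown fat, and Acot9 (1.15, SE 0.14, adjusted p 1.54e-06), a mitochondrial thioesterase. Acot9 ran from -0.85 through -0.56 to -0.12 in LWT and from 0.11 through 0.65 to 0.91 in LKO, so the family held calls in both directions. Acot6 was level between the groups (-0.00, adjusted p 0.994).

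Ketone body synthesis was lower at several steps. Of 7 listed genes, 5 were called lower and 0 higher, with a median of -0.79. The thiolase Acat1 differed by -0.98 and Bdh1, which interconverts the ketone bodies, by -0.79. Slc16a1, the monocarboxylate transporter through which ketone bodies leave cells, differed by -1.08 (SE 0.21, adjusted p 0.000639), with the highest LKO mouse (4.62) inside the LWT range (4.32 to 4.90). Bdh1 was lower in LKO on 2 of the 3 slides.

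**Figure D2:**
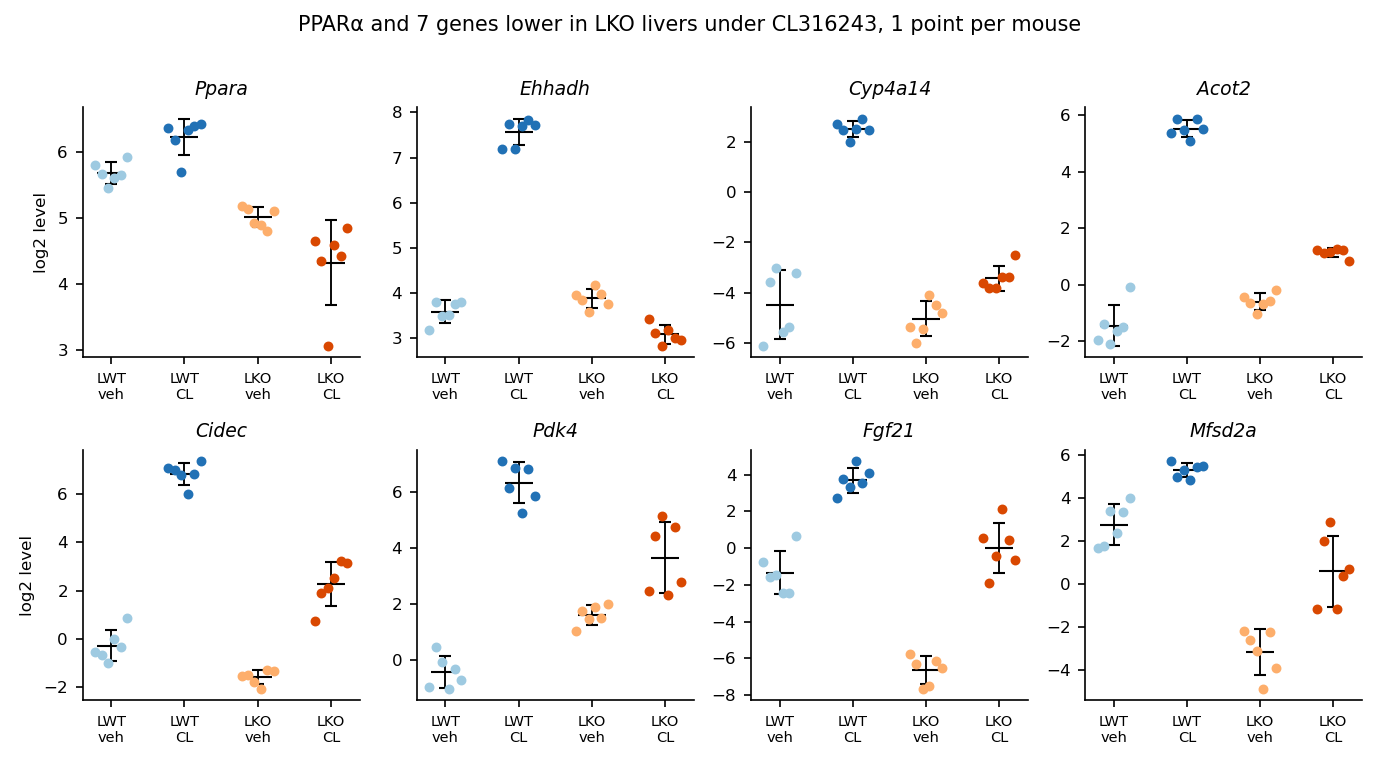
Log2 levels of Ppara and 7 genes lower in LKO livers under CL316243, with 1 point per mouse and the mean ± SD of 6 mice per group. The y axis is log2 signal minus the array's 75th percentile and differs between panels. The LWT mice given CL316243 (LWT CL) form the highest group in every panel, for Ehhadh at 7.20 to 7.84 against 2.83 to 3.42 in LKO, and every one of them lies above every LKO mouse given CL316243.

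Lipid droplet genes were the next group of large differences. Of 19 genes for droplet coats and lipolysis, 12 were called lower and 2 higher, with a median of -1.36 and no overlap for 10 of the lower ones. Cidec, a protein that enlarges lipid droplets, ran from 6.02 through 6.93 to 7.37 in LWT and from 0.74 through 2.31 to 3.25 in LKO, a difference of -4.58 (SE 0.35, adjusted p 1.46e-09), or 23.9-fold. G0s2, an inhibitor of the main triglyceride lipase, was tightly held in LWT at 6.00 to 6.35 and scattered in LKO at -0.13 to 4.40. It differed by -3.46 (SE 0.55, adjusted p 8.95e-05). Plin5, the droplet coat that ties droplets to mitochondria, differed by -3.25 and Fitm1, which helps droplets form, by -2.51, both without overlap. With normexp Fitm1 differed by -1.795. The lipases were lower too: Pnpla2 (adipose triglyceride lipase) by -1.30 and Lipe (hormone-sensitive lipase) by -1.47. The 2 members called higher were the coat protein Plin3 (0.84, SE 0.16, adjusted p 0.000441), which did not overlap between the groups, and Abhd5 (0.96, adjusted p 0.00192), the activator of Pnpla2. The list thus holds both the inhibitor of Pnpla2, called lower, and its activator, called higher.

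Fatty acid uptake and activation showed fewer calls, 7 lower and 0 higher of 17, with a median of -0.21. Mfsd2a, a transporter of lysophospholipids, ran from 4.86 through 5.38 to 5.71 in LWT and from -1.17 through 0.55 to 2.89 in LKO, a difference of -4.69 (SE 0.60, adjusted p 5.42e-06). Acsl1, the main hepatic acyl-CoA synthetase, differed by -2.06 (SE 0.20, adjusted p 8.64e-08) and Acsl5 by -0.94; a second, dimmer Acsl5 probe gave 0.16. Fabp4, a fatty acid binding protein of adipocytes and macrophages, differed by -1.34 with overlapping groups. The uptake protein Cd36 was not called (-0.66).

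Genes that build glycerol phosphate and triglyceride were also lower, 8 of 16 called lower and 1 higher, with a median of -0.35. Aqp3, a channel for water and glycerol, was well above background on all 6 LWT arrays and on 0 of 6 LKO arrays, and LKO lay at least 7.67-fold lower (adjusted p 2.83e-08). In such a case the dim group is set at the dimmest signal still well above background on each array. The lower bound given holds for the processed signal only. With normexp Aqp3 differed by -1.44 on the log2 scale, less than its bound. Agpat9, an enzyme of the first acylation step, differed by -3.18 and the mitochondrial glycerol phosphate dehydrogenase Gpd2 by -2.0. The glycerol kinase gene Gyk ran from 4.51 through 4.88 to 5.20 in LWT and from 3.13 through 3.62 to 3.98 in LKO (-1.31, SE 0.14, adjusted p 3.62e-07). Lpcat3, which remodels phospholipids, differed by -1.53, again without overlap. The member called higher was Mogat2 (1.33, or 0.63 with normexp), with overlapping groups.

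Of 17 lipoprotein and lipase genes, 7 were called lower and 0 higher (median -0.15). Angptl4, a secreted inhibitor of lipoprotein lipase, ran from 7.27 through 7.51 to 7.60 in LWT and from 5.11 through 6.28 to 6.39 in LKO, a difference of -1.41 (SE 0.28, adjusted p 0.00114). The groups did not overlap. Creb3l3, a liver transcription factor that acts with PPARα on Fgf21, differed by -1.21 and the apolipoprotein gene Apoa4 by -0.98. Lipg, endothelial lipase, differed by -2.02 with 3 of 6 LKO arrays well above background, and by -0.78 with another background correction. The major apolipoprotein genes Apob (0.22), Apoa1 (-0.18) and Apoc3 (0.05) were not called.

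Among 18 secreted hepatokines and receptors of FGF21, 3 were called lower and 3 higher, the latter 1 in the fit on the CL316243 arrays alone and 5 without LWT_Beta3 replicate 1. Fgf21, a fasting hormone, ran from 2.75 through 3.67 to 4.73 in LWT and from -1.90 through 0.00 to 2.13 in LKO. The groups did not overlap, with a difference of -3.67 (SE 0.57, adjusted p 6.24e-05), or 12.7-fold. Under vehicle, Fgf21 was well above background on 6 of 6 LWT and 0 of 6 LKO arrays. Inhbe, which encodes the activin E subunit, differed by -2.40 (SE 0.28, adjusted p 1.02e-06), and Igfbp2 by -0.97. Higher were the stress hormone Gdf15 (1.25), and 2 receptor parts, Klb (0.82, adjusted p 0.0123), the co-receptor of FGF21, and Fgfr4 (0.70, adjusted p 0.000324). The Klb groups overlapped, at -1.18 to 0.08 in LWT and -0.71 to 1.0 in LKO.

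Vnn1, a pantetheinase that recycles the precursor of coenzyme A, was among the genes with the largest negative differences. It ran from 1.64 through 2.86 to 3.41 in LWT and from -4.29 through -3.67 to -2.12 in LKO, where 5 of 6 arrays were well above background, and differed by -6.09 (SE 0.54, adjusted p 1.73e-08), or by -4.56 with normexp background correction. Of 11 genes of coenzyme A supply, 2 more were called lower, the synthesis enzymes Ppcs (-1.41) and Pank1 (-0.81), and 0 higher.

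Mitochondrial carriers were lower in 9 of 16 cases and higher in 0 (median -0.44), while of 24 respiratory chain genes 2 were called lower and 1 higher (median -0.04). Slc25a34, a carrier of unknown substrate, differed by -4.73 at its brighter probe and by -0.54 at a second probe nearer the start of the transcript. Slc25a30 differed by -2.17 and the coenzyme A carrier Slc25a42 by -2.11. Of the respiratory genes, cytochrome c (Cycs) differed by -0.56 and Ndufab1, which is also the mitochondrial acyl carrier protein, by -0.40, both without overlap.

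Pyruvate handling differed at several regulators. Pdk4, a kinase that shuts off pyruvate oxidation, ran from 5.22 through 6.48 to 7.08 in LWT and from 2.30 through 3.59 to 5.14 in LKO, a difference of -2.69 (SE 0.44, adjusted p 0.000124). The groups just failed to overlap. Pdp1, the phosphatase that reverses the reaction of the kinases, was higher (1.16, or 0.60 with another background correction). Txnip, a sugar-responsive brake on glucose uptake, was lower (-1.45), and Ppargc1a, a coactivator of oxidative and gluconeogenic genes, was higher (1.66, SE 0.40, adjusted p 0.00505) with overlapping groups. Over the list of 20 glucose and pyruvate genes, 4 were called higher and 3 lower, with a median of -0.05. The gluconeogenic Pck1 (0.06) and G6pc (-1.09) were not called.

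Of 19 receptors and coregulators around PPARα, 6 were called lower and 3 higher. The coactivator Ppargc1b differed by -2.20 (SE 0.37, adjusted p 0.000159) and Rxrg, an RXR isotype, by -1.48. Pparg, the adipose paralog of Ppara, was higher. It ran from 0.46 through 0.79 to 1.34 in LWT and from 1.51 through 2.10 to 2.41 in LKO, without overlap, a difference of 1.11 (SE 0.18, adjusted p 0.000119), or 2.17-fold. The third paralog, Ppard (0.27), and the main hepatic partner, Rxra (-0.02), were not called. With the 12 CL316243 arrays alone, 2 of the list were called lower.

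In lipogenesis, 9 of 21 genes were called lower and 1 higher, with a median of -0.41; 5 were called lower in the fit on the CL316243 arrays alone. Srebf1, the transcription factor of fatty acid synthesis, ran from 4.19 through 4.75 to 5.74 in LWT and from 2.61 through 3.46 to 4.18 in LKO, a difference of -1.39 (SE 0.26, adjusted p 0.000423). The elongase Elovl3 differed by -1.83 and the desaturase Fads2 by -1.01, at 5 probes that all gave lower values. Lpin2 was called lower (-0.97, adjusted p 0.0424), but by -0.58 without LKO replicate 3; it lost its call in 12 of 24 other settings and was higher in LKO on 1 of the 3 slides (0.17). The core enzymes Fasn (-0.03), Scd1 (0.02) and Acly (-0.48) were not called.

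Cholesterol synthesis went the other way. Of 22 genes, 11 were called higher and 1 lower, with a median of 0.62. Mvd, a decarboxylase of the mevalonate pathway, ran from -2.12 through -1.54 to -0.91 in LWT and from -0.69 through 0.37 to 1.48 in LKO, and was the member called higher without overlap (1.87, SE 0.45, adjusted p 0.00586). Msmo1 (1.27) and Sqle (1.12), which epoxidises squalene, were higher with overlapping groups. Hsd17b7 was the member called lower (-1.26, SE 0.15, adjusted p 1.12e-06), without overlap. The count of higher genes was 7 in the fit on the CL316243 arrays alone and 15 without LKO replicate 3, the mouse with the lowest list median.

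Some genes of cellular stress were called higher in LKO. Of 16 genes of the ATF4 response, which is switched on when protein synthesis or amino acid supply is strained, 7 were called higher and 0 lower, with a median of 1.12. Among the 9 not called were Atf3 (1.44, adjusted p 0.0963), Asns (1.30, 0.170), Chac1 (1.13, 0.224) and Trib3 (0.88, 0.0818). Nupr1, a stress-induced chromatin protein, ran from -0.56 through 0.08 to 1.67 in LWT and from 0.78 through 2.77 to 5.07 in LKO. The groups overlapped, and the difference was 2.56 (SE 0.52, adjusted p 0.00117); a second, dim Nupr1 probe gave -0.06. Ddit3, which encodes the stress factor CHOP, ran from -0.85 through -0.69 to -0.10 in LWT and from 0.02 through 0.44 to 1.98 in LKO, without overlap (1.23, SE 0.24, adjusted p 0.000750). LKO replicate 3, whose neutrophil marker sum is given above, was the highest mouse for both genes, and without it they differed by 2.11 and 0.96. Without it 5 of the list were called, and 3 in the fit on the CL316243 arrays alone.

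Chaperones of the endoplasmic reticulum were higher by smaller amounts, 11 of 17 called higher and 0 lower, with a median of 0.46. Herpud1, a membrane protein of protein quality control, ran from 6.18 through 6.73 to 6.90 in LWT and from 7.24 through 7.40 to 7.69 in LKO. The groups did not overlap, and the difference was 0.82 (SE 0.16, adjusted p 0.000744). Sdf2l1 differed by 1.18, Edem1, which hands misfolded proteins to degradation, by 0.71, and Calr (calreticulin) by 0.43, the last 2 without overlap. The chaperone Hspa5, often used as a marker of this response, was not called (0.57). The fit on the CL316243 arrays alone called 6 higher. Leaving out LWT replicate 4, the mouse with the lowest list median, left 5, leaving out LKO replicate 4 left 6, and leaving out LWT replicate 6 left 7.

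**Figure D3:**
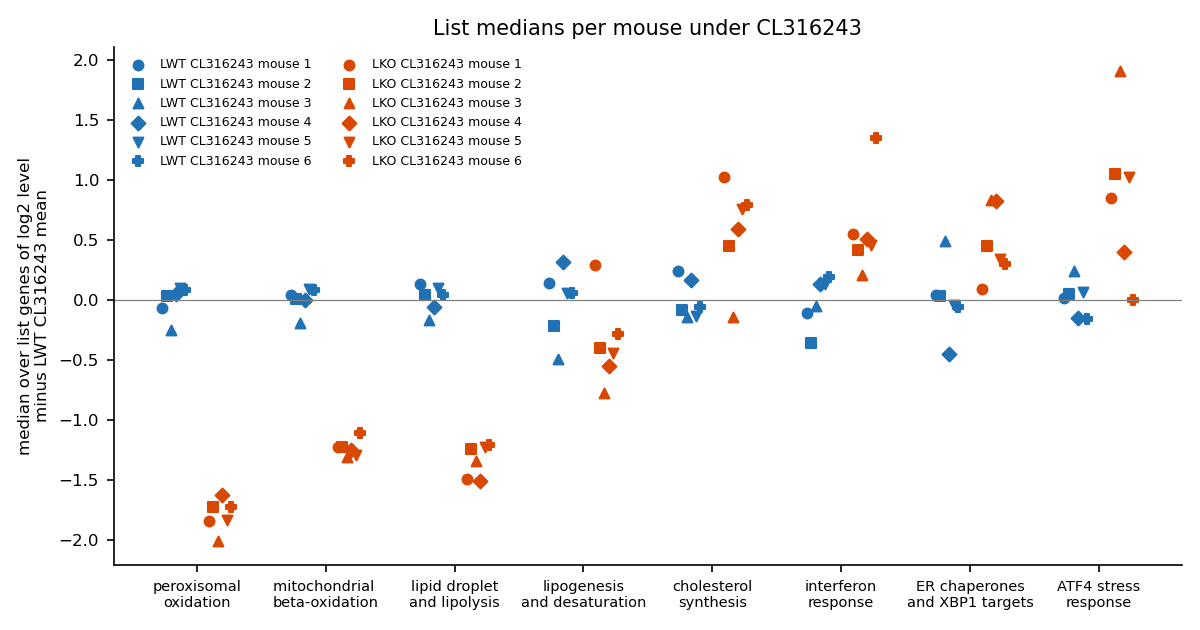
List medians per mouse under CL316243, for 8 lists. Each point is the median over a list's genes of 1 mouse's log2 level minus the LWT CL316243 mean, with LWT in blue and LKO in orange and a marker shape for each replicate number. The 6 LKO mice lie at -2.01 to -1.62 for peroxisomal oxidation, while for the ATF4 list they range from 0.00 to 1.91 and overlap LWT. LKO mouse 6 stands highest for the interferon list at 1.35, against 0.21 to 0.55 in the other 5.

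Interferon-stimulated genes were higher in LKO as well. They are switched on through STAT and IRF transcription factors, which bind a DNA element known as the interferon-stimulated response element. Of 21 genes, 13 were called higher and 0 lower, with a median of 0.65, and for 7 the groups did not overlap. Usp18, a brake on interferon signalling, ran from 0.21 through 0.86 to 1.13 in LWT and from 1.35 through 2.46 to 3.43 in LKO, a difference of 1.70 (SE 0.24, adjusted p 2.47e-05), or 3.24-fold. Mx2, an antiviral GTPase, ran from -0.01 through 0.16 to 0.45 in LWT and from 1.22 through 1.57 to 1.86 in LKO (1.37, SE 0.12, adjusted p 2.64e-08). For Usp18, LKO replicate 3 was the lowest of its group and replicate 6 the highest. All LKO mice lay above all LWT mice for both genes. Oasl1 differed by 1.18 and Ifit1 by 1.13, with overlapping groups. Ifit1 and Ifit3 were each higher in LKO on 2 of the 3 slides. Isg15 (0.77), Oas1a (0.69) and Ifit3 (0.74) were also called. Irf1 (0.14) and the immunoproteasome gene Psmb8 (-0.07) were not. The count was 10 in the fit on the CL316243 arrays alone, and 13 or 14 when any 1 of the 12 mice was left out. Of 13 chemokine and NF-kB target genes, 0 were called in limma, although their median was 0.37.

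Promoter sequences are shown for 4 of the called genes, and only genes that hold a match to the response element were shown. Each sequence is the 250 bases before the transcription start, from RefSeq (build GRCm38.p6), 5′ to 3′ on the gene's strand. Capitals mark matches to a short form of the response element (GAAA, any 2 bases, then GAAA), searched on both strands of windows of 300 bases that also include the first 50 bases of each gene. The windows shown are chr4:156200819-156201068 (minus strand) for Isg15, chr19:34640639-34640888 (plus) for Ifit1, chr19:34583279-34583528 (plus) for Ifit3 and chr5:120907526-120907775 (minus) for Oas1a.
Isg15: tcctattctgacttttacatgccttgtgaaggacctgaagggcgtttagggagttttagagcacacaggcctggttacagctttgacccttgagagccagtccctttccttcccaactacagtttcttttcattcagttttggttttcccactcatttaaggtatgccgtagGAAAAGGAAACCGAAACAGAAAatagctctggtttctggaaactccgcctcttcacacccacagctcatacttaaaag
Ifit1: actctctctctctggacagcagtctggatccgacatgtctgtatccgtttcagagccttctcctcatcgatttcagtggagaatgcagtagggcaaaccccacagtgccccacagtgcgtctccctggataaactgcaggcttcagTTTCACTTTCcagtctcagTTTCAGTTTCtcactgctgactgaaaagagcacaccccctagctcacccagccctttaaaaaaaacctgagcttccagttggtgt
Ifit3: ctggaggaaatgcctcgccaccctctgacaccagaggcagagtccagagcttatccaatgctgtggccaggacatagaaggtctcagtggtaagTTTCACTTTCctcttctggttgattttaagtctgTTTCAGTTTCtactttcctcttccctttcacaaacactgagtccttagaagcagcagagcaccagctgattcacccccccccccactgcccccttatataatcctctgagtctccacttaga
Oas1a: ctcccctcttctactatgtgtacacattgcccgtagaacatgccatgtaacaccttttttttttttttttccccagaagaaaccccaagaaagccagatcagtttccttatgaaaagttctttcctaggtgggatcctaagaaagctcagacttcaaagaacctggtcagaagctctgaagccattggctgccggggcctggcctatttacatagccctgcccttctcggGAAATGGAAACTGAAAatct
Isg15 holds 3 overlapping matches, the first starting at -78 relative to the transcription start, and Oas1a holds 2 overlapping ones, the first at -20. Ifit1 has 2 matches, at -104 and -85, and Ifit3 has 2, at -156 and -122. All 4 of these lie on the strand opposite to the gene and so appear as the reverse complement. Of the 17 list members with a window in the table, 7 held a match, and 6 of the 11 called. For Usp18, Mx2 and Oasl1 no match was found, and whether each had a window is not given here. Among all tested genes with a window, 3.80% held one, as did 5.30% of the genes called higher and 2.17% of those called lower. A match is a description of letters and says nothing on binding in these livers.

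The window of Nupr1, the ATF4-list gene with the largest difference, is shown the same way (chr7:126625471-126625720, minus strand), with capitals for a match to TGATGNAAN, a form of the element bound by CHOP and ATF4 dimers.
Nupr1: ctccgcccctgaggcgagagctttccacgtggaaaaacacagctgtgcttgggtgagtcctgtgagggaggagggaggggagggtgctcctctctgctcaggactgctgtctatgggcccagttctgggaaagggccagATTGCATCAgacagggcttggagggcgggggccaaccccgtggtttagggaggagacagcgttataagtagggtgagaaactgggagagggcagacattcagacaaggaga
The match starts at -111, on the opposite strand, and 5 of 16 list members with a window held this motif, against 3.10% of all tested genes. Of the 7 called members with a window, Nupr1 was the 1 that held it. The element bound by PPARα with RXR was searched as AGGNCA, any 1 base, then AGGNCA, on both strands. List genes with a window numbered 16 mitochondrial, 12 peroxisomal, 6 omega-hydroxylation, 10 thioesterase, 2 ketogenesis and 18 lipid droplet, and 0 held it. It was in 0.188% of called lower, 0.568% of called higher and 0.410% of all tested genes with a window. At such shares 0 is likely in lists this small, and sequence outside the windows was not searched. The 0 therefore does not show that these genes lack the element.

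The single genes with the largest higher levels belonged to no common list. Trp53inp1, a stress-induced protein of p53 signalling and autophagy, ran from 0.92 through 1.28 to 2.58 in LWT and from 3.47 through 4.38 to 4.59 in LKO. It differed by 2.74 (SE 0.27, adjusted p 1.15e-07), or 6.67-fold, without overlap. Avpr1a, the vasopressin receptor of hepatocytes, ran from 1.63 through 2.54 to 2.68 in LWT and from 4.23 through 4.49 to 5.27 in LKO (2.35, SE 0.21, adjusted p 1.96e-08). Stat5b, the mediator of growth hormone signals, had a smaller but tight difference. It ran from 2.10 through 2.35 to 2.45 in LWT and from 3.14 through 3.21 to 3.34 in LKO (0.92, SE 0.09, adjusted p 1.27e-07). Stat5b is on the list of growth hormone and male-biased genes. Of the 21 tested there, 4 were called higher and 1 lower, with a median of 0.08. In the fit on the CL316243 arrays alone, 1 was called higher.

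Gldn (3.73, gliomedin), Ppp4r4 (2.66, a regulatory subunit of protein phosphatase PP4), Lrtm1 (2.62), Col8a1 (2.50, a short-chain collagen) and Blnk (2.44, a B cell signalling adaptor) also lay wholly above LWT in LKO. So did DXBay18 (2.29), Psg16 (2.18, of a family of close paralogs whose probes may share signal), Cebpe (2.16, a granulocyte transcription factor) and Osgin1 (2.15, an oxidative stress gene). Beside Blnk and Cebpe, 0 of 4 tested B cell markers and 1 of 6 tested neutrophil markers were called, and whether those cells contribute was not tested. Cela2a (2.46) and Ctrc (1.95), both pancreatic proteases, were higher with the pancreatic genes Cpa1, Pnlip and Prss2 too dim to be tested. The summed pancreatic signal overlapped, at 20.7 to 34.8 in LWT and 26.4 to 32.7 in LKO. Sizes of dim genes depend on the background correction: with the normexp method Ppp4r4 differed by 1.69, DXBay18 by 1.36 and Ctrc by 0.97. In the same setting Gldn differed by 2.60, Lrtm1 by 1.89 and Col8a1 by 1.85. S100g, a calcium-binding protein, was well above background on 0 of 6 LWT and 6 of 6 LKO arrays. On the processed signal LKO lay at least 49.2-fold higher (adjusted p 1.53e-07). With normexp S100g differed by 3.89 on the log2 scale, less than that bound.

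**Figure D4:**
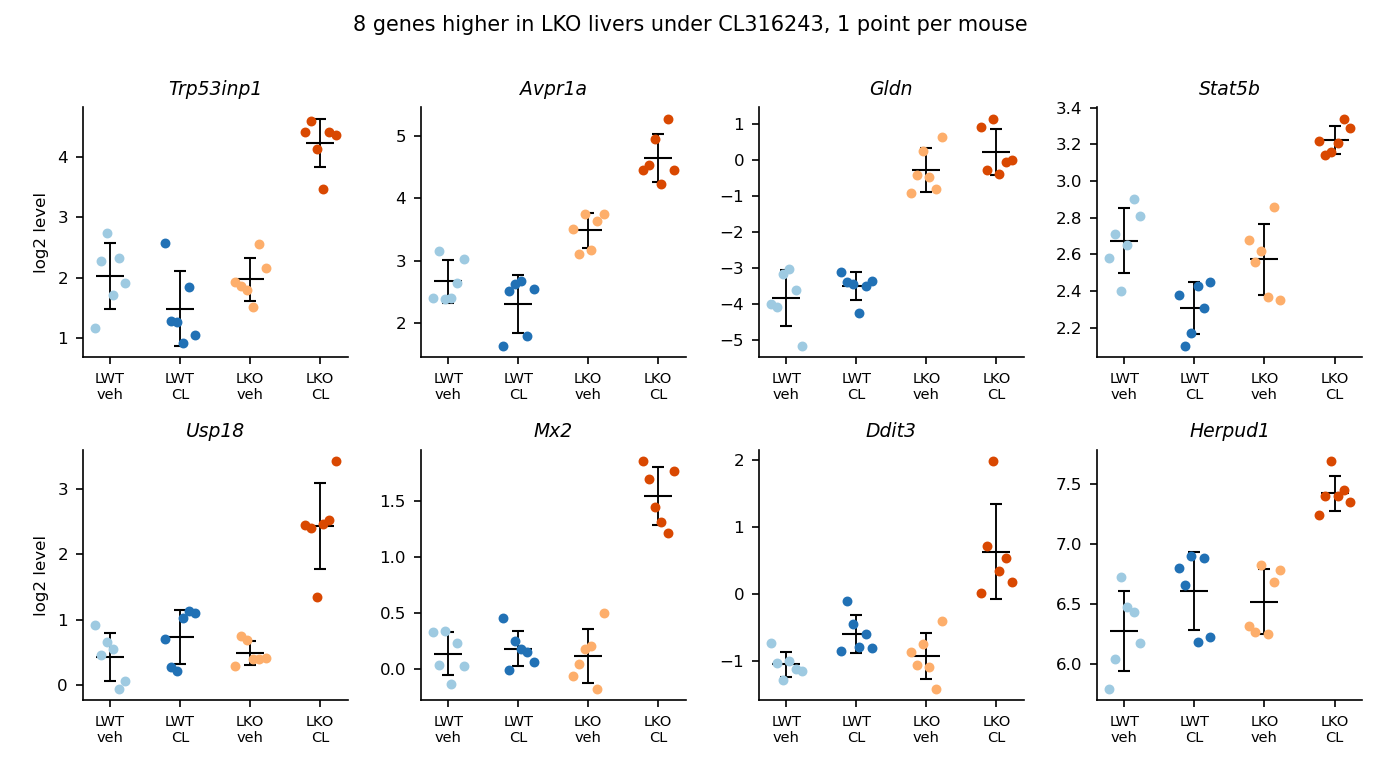
Log2 levels of 8 genes higher in LKO livers under CL316243, with 1 point per mouse and the mean ± SD of 6 mice per group. The y axis is log2 signal minus the array's 75th percentile and differs between panels. For 7 of the 8 the LKO mice given CL316243 stand above all other groups, as for Mx2 at 1.22 to 1.86, while Gldn is high in LKO under vehicle too (-0.91 to 0.64).

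Among single lower genes outside the lists, Serinc2, a membrane protein of serine incorporation, ran from 1.92 through 2.51 to 2.85 in LWT and from -3.61 through -2.74 to -2.60 in LKO. It differed by -5.45 (SE 0.22, adjusted p 4.57e-14), or by -4.42 with normexp. Caln1, a calcium-binding protein, differed by -4.59, or by -2.92 with normexp, and Rab30, a small GTPase of the Golgi, by -3.94 (adjusted p 4.23e-09). The LKO mice of both lay below all LWT mice. Another 4 genes were well above background on 6 of 6 LWT and 0 of 6 LKO arrays. On the processed signal Dlg4, a synaptic scaffold, was at least 15.1-fold lower and the melatonin receptor Mtnr1a at least 14-fold. The channel subunit Unc79 was at least 12.4-fold and Rufy4 at least 10.2-fold lower. With normexp the log2 differences were smaller than these bounds: Dlg4 -2.15, Mtnr1a -2.45, Unc79 -1.90 and Rufy4 -1.84. A second Dlg4 probe nearer the start of the transcript gave 0.19, so its probes disagree.

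Under vehicle, the same genotype comparison called 251 genes (1.18%), 85 higher (0.398%) and 166 lower (0.778%) in LKO. Of these, 182 were called in the same direction under CL316243, which is 72.5% of the vehicle calls and 5.36% of the CL316243 calls, and 6 in the opposite direction. Whether a genotype difference itself differed by treatment was tested as an interaction, called for 1153 genes (5.41%), 462 higher (2.17%) and 691 lower (3.24%). The interaction shares arrays with the CL316243 comparison, so the values of each are set side by side.

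The oxidation genes show how the treatments compared. Slc25a20 differed by -1.52 under vehicle and -2.61 under CL316243, and Etfdh by -1.03 and -2.24, with interactions of -1.09 and -1.21, both called. On the mitochondrial list 13 genes were already called lower under vehicle (median -0.47). Ehhadh differed by 0.29 under vehicle (adjusted p 0.592), with an interaction of -4.77 (adjusted p 2.30e-13). CL316243 itself changed 8180 genes in LWT (38.3%) and 8596 in LKO (40.3%), and Ehhadh by 3.98 and by -0.80. These comparisons share the CL316243 arrays with the genotype comparison. Cyp4a14 differed by -0.56 under vehicle and had an interaction of -5.40 (adjusted p 1.02e-05). Some thioesterases reversed: under vehicle, Acot1 (1.35) and Acot5 (1.59) were called higher in LKO, while Acot2 (0.85) and Acot3 (1.48) were not called. The thioesterase list had 3 higher, 1 lower and 8 not called under vehicle, with a median of 0.82, against -1.32 under CL316243. Pdk4 reversed as well, with 2.04 under vehicle (adjusted p 0.0161) and an interaction of -4.73.

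**Figure D5:**
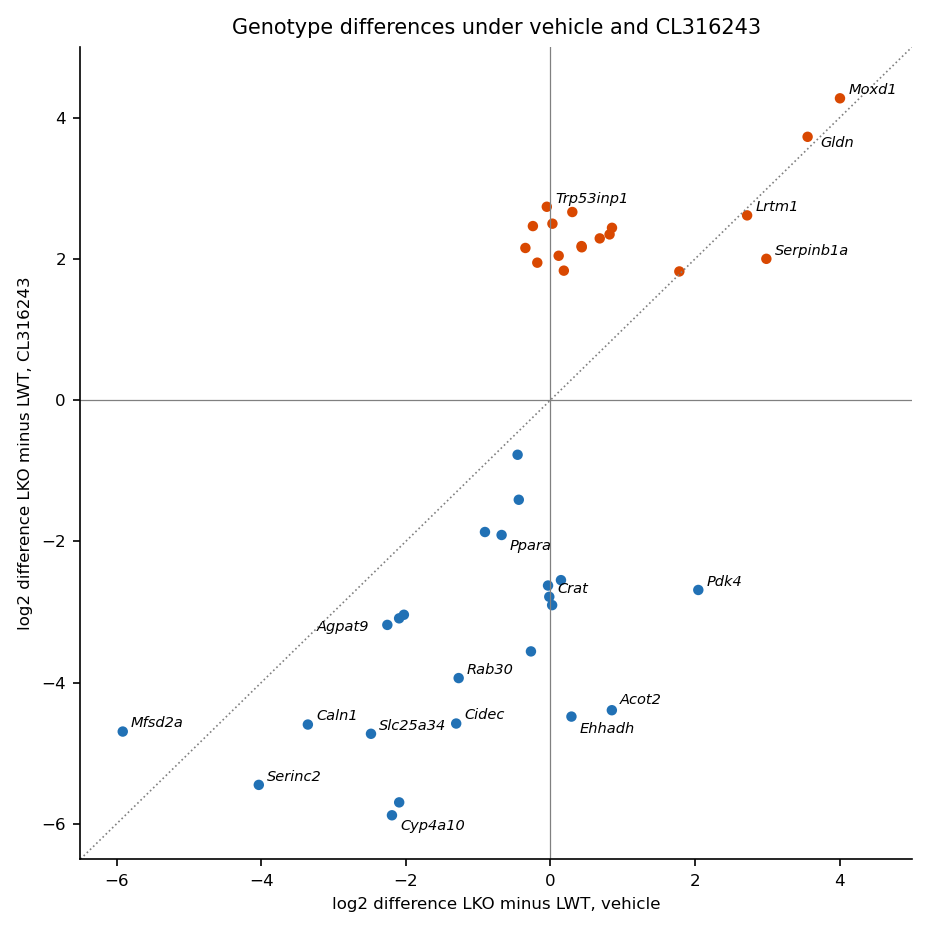
Log2 difference LKO minus LWT under vehicle (x axis) and under CL316243 (y axis) for the 41 named genes detected above background on 4 or more of 6 arrays in both vehicle groups. The dotted line marks equal differences, and orange and blue mark genes higher and lower in LKO under CL316243. The absolute difference was larger under CL316243 for 38 of the 41, which were chosen by their CL316243 values; Mfsd2a and Serpinb1a are among the 3 exceptions, and Pdk4, Acot2 and Ehhadh lie at or above 0 under vehicle.

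Other genes differed to a like extent with and without the agonist, and their interactions were not called. Gldn ran from -0.91 to 0.64 in LKO and from -5.17 to -3.02 in LWT under vehicle, a difference of 3.56 against 3.73 under CL316243 (interaction adjusted p 0.898). Moxd1, a monooxygenase-like protein, differed by 4.00 and 4.27, with overlapping groups under CL316243, and Lrtm1 by 2.72 and 2.62. Mfsd2a differed by -5.92 under vehicle and -4.69 under CL316243, Fitm1 by -2.40 and -2.51, and the galectins Lgals4 by -2.03 and -3.04 and Lgals6 by -2.09 and -3.09; the 2 galectin probes may share signal. Serpinb1a, a protease inhibitor, differed by 2.99 and 2.0 and Acnat2, an acyltransferase of peroxisomes, by 1.78 and 1.82. Caln1 differed by -3.36 and -4.59. A test that misses the threshold does not show that these differences are equal.

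At the other end were genes with little genotype difference under vehicle and a called interaction. Crat, carnitine acetyltransferase, ran from 4.51 through 5.08 to 5.33 in LWT_Beta3 and from 0.08 through 2.54 to 3.04 in LKO_Beta3, a difference of -2.79 against -0.02 under vehicle (interaction adjusted p 0.00187). Elmod3 differed by -2.63 against -0.03, Spon2 by -3.56 against -0.27, Hpdl by -2.90 against 0.02 and Nim1k by -2.55 against 0.15. A second Nim1k probe gave -0.06 under CL316243, and with normexp Hpdl differed by -1.42. Of the higher genes, Trp53inp1 differed by -0.05 under vehicle, Col8a1 by 0.03, Zfp385b by 0.11 (2.04 under CL316243, or 1.12 with normexp) and Piga, an enzyme of membrane anchor synthesis, by 0.18 (1.83). The interferon list had 0 genes called in either direction under vehicle (median -0.08), as did the ATF4 list (0.08) and the chaperone list (-0.01), and 5, 0 and 1 of their genes had a called interaction. For Usp18 the interaction was 1.64 (adjusted p 0.00545) and for Mx2 1.40 (adjusted p 1.98e-05). CL316243 changed Usp18 by 0.31 in LWT and 1.95 in LKO. For Nupr1 and Ddit3, at 2.40 and 1.11, the interaction was not called (adjusted p 0.0574 and 0.0571).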

How the data were processed

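Livers of 24 mice (4 groups of 6) were measured on 1 single-colour Agilent array each, 8 arrays to each of 3 slides. Per the file headers, the deposited intensity is the processed signal of Agilent Feature Extraction 10.10.1.1, already background-subtracted; 200 ng RNA was used per the labels. The authors' deposited log2 series matrix of 31367 probes served as an alternative; its values lay a median of 0.00368 from quantile-normalized log2 median spot signal, so they are log2 levels without centring. From the intensity, log2 minus each array's 75th percentile was computed here. Control and outlier spots were left out, replicate spots averaged, and a probe was kept if at least 4 of the 6 arrays in any group had it well above background (32037 of 56605 probes). Each of 21331 genes was represented by its brightest kept probe. Differences were fitted over all 24 arrays (limma 3.58.1, R 4.3.3), with adjusted p under 0.05 as threshold. The p-values set each difference against the spread between mice, pooled over all 4 groups. The CL316243 groups were the more variable: the median SD over genes was 0.224 in LWT_Beta3 and 0.245 in LKO_Beta3. In LWT_Vehicle it was 0.178 and in LKO_Vehicle 0.182. The number of arrays limits the precision. On simulated data the fit of LKO_Beta3 against LWT_Beta3 recovered 31.3%, 77.6% and 93.9% of genes changed by 0.5, 1 and 2 on the log2 scale, over 21331 genes. The simulation changed only 67, 67 and 66 genes by these sizes, with independent noise and no other group effect. In the real comparison 15.9% of genes were called, so these shares do not describe it.

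The members and the lists were chosen with earlier results of these data known. Genes were named by a rule: 7 known PPARα targets, the 12 largest non-overlapping differences each way, the 4 largest bounds, up to 4 called genes of each list, and the 5 largest each way with a difference shared with vehicle or with a called interaction. Acot9, Acot11, Pnpla2, Lipe, Plin3, Abhd5, Gyk, Mogat2, Klb, Fgfr4, Pparg, Calr, Isg15, Oas1a, Ifit3 and Kmo were named after their values were seen. Alternatives covered normalization, background correction, probe filters, blocks and leaving out each mouse. A few members of the lists are not reported here by name.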

Additional observations from a re-analysis of the deposited data

Results flagged for a closer look

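Among 98 groups of 6 mice checked (49 genes in both CL316243 groups), 11 held a mouse far from the other 5; chance alone marks about 1 in 20 groups. LKO_Beta3 replicate 3 was that mouse for 6 genes: Ppara at 3.06 (others 4.35 to 4.85), Angptl4 at 5.11 (5.99 to 6.39), Crat at 0.08 (1.98 to 3.04), Hpdl at -5.88 (-4.23 to -3.46), Lgals4 at -0.56 (0.44 to 1.02) and Osgin1 at 4.63 (5.61 to 6.19). LKO_Beta3 replicate 6 stood apart for Acot2 at 0.84 (1.11 to 1.27) and Cyp4a14 at -2.49 (-3.83 to -3.39). In LWT_Beta3, replicate 3 stood apart for Ppara at 5.70 (6.19 to 6.42) and Dlg4 at -1.65 (-0.83 to -0.49), and replicate 4 for Gldn at -4.25 (-3.49 to -3.12).

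For 31 of the 49 genes the genotype difference under CL316243 differed from that under vehicle by the interaction test (limma, adjusted p under 0.05). The 49 were named partly by this same test and partly by their CL316243 differences, so the count partly follows from that choice. Over all tested genes, 5.41% had a called interaction. The difference was more negative under CL316243 than under vehicle, with the interaction on the log2 scale, for Cyp4a14 (-5.40), Acot2 (-5.24), Ehhadh (-4.77), Pdk4 (-4.73), Cyp4a10 (-3.69), Cyp4a31 (-3.60), Spon2 (-3.29), Cidec (-3.28) and Hpdl (-2.93). It was so too for Crat (-2.77), Nim1k (-2.70), Rab30 (-2.67), Elmod3 (-2.59), Slc25a34 (-2.24), Serinc2 (-1.42) and Ppara itself (-1.23). The interactions of Dlg4 (-5.27), Unc79 (-3.99) and S100g (7.19) are fitted values with a group at background and are no bounds. It was more positive under CL316243 for Trp53inp1 (2.79), Cela2a (2.71), Osgin1 (2.50), Col8a1 (2.47), Ppp4r4 (2.36), Ctrc (2.13), Zfp385b (1.93), Psg16 (1.75), Cebpe (1.73), Piga (1.65), Blnk (1.59) and Avpr1a (1.53).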

How the results depend on the processing

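The 3393 genes called under CL316243 became 2203 in the fit on the CL316243 arrays alone (974 higher) and 1627 when at least a 1.5-fold difference was asked for (716 higher, 911 lower). Leaving out 1 mouse at a time gave 2856 to 3958 genes, 1355 to 1991 higher and 1501 to 1967 lower, lowest without LWT_Beta3 replicate 6 and highest without LKO_Beta3 replicate 3. Vehicle calls ranged from 188 to 282 and interaction calls from 935 to 1535 in the same way; without the filter on dim probes they were 167 and 664. The same-numbered mice of the groups share only a number: the correlation of their deviations ran from -0.183 to 0.424 over the 6 numbers, and a replicate block called 3545 genes, 1729 higher and 1816 lower, with 271 under vehicle and 1217 for the interaction.

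The median of the lipid droplet list was -1.15 with normexp and -1.58 as the mean over probes. The fatty acid uptake median ran from -0.36 to -0.19 with 1 mouse left out. The growth hormone list median of 0.08 was 0.36 with probes well above background on 6 of 6 arrays, 0.31 as the mean over probes, and 0.0546 to 0.185 with 1 mouse left out. The causes were not tested.

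Of 160 called genes refitted under each of 24 settings, 0 changed direction where a value could be had. Of these, 25 lost their call in the fit on the CL316243 arrays alone (among them Apoa4, Arg1, Ccnd1, Cth, Fabp4, Gdf15, Hal, Hmox1, Ifit1, Ifit3, Klb, Rxrg and Sult1e1), 10 without the filter on dim probes and 3 with the replicate block. Arrays limit what dim genes can show: a gene near background has a difference that depends on the background correction.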

Other observations

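Other liver programmes held calls in both directions under CL316243, beside 15.9% of all genes called. Of 16 clock genes, 4 were called: Nr1d1, a repressor of the clock, was lower (-2.07, without overlap) and Bhlhe40 higher (0.92, without overlap), with Cry1 higher (0.65) and Clock lower (-0.53). With normexp, Nr1d1 differed by -1.18 and Cry1 by 0.39. All livers were taken at a single time of day, so a shift in phase and a change in level cannot be told apart. Of 24 cytochromes and partners of families 1 to 3, 4 were called (3 higher, a count of 1 to 7 in other settings and, of LWT_Beta3, of 5 without replicate 1, 6 without replicate 5 and 1 without replicate 6), with Cyp2c70 at 0.81 and Por, their electron donor, at -0.97. Of 26 acute phase genes, 3 were called: Cp (ceruloplasmin) at 0.52, Crp at 1.23 and Hamp (hepcidin) at -0.55, which lost its call in 16 of 24 other settings. A second Crp probe gave 0.18, and the Cp probes ranged from -0.17 to 1.44.

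Amino acid and NAD genes were mixed. In the urea cycle and amino acid list, Hal (histidine breakdown, 1.05) and Cth (1.03) were higher and Arg1 (-0.62) and Got2 (-0.44) lower, of 20. From tryptophan to NAD, Acmsd (0.97), Nampt (0.87) and Kynu (0.81) were higher and Tdo2 (-0.89) and Kmo (-0.65) lower, of 13. Of 16 antioxidant and glutathione genes, 4 were called higher and 1 lower, with a median of -0.07. The glutathione enzyme Gclc (1.32) and the haem oxygenase Hmox1 (1.54) were among the higher ones. The lower one was Nqo1 (-0.39), which lost its call in 5 of 24 other settings. Hmox1 was 1.09 without LKO_Beta3 replicate 3. Sult1e1, the oestrogen sulfotransferase, was higher by 2.77, or by 2.0 without that mouse. Of 16 cell cycle and growth arrest genes, 1 was called higher (Gadd45a, 1.81) and 1 lower (the cyclin Ccnd1, -1.30). Of 18 autophagy and lysosome genes, 3 were called higher and 1 lower, with a median of 0.06. Sqstm1 (0.62) and Gabarapl1 (0.67) were higher without overlap. Fbxo21 was the lower one (-0.99) and lost its call in 11 of 24 other settings. Of 18 bile acid genes, the canalicular phospholipid pump Abcb4 was lower (-1.18, without overlap) and Cyp7b1 (0.63), Slco1b2 (0.55) and Baat (0.32) were higher; 1 was called higher in the fit on the CL316243 arrays alone, and Cyp7b1 lost its call in 14 of 24 other settings.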
